A study of Mus musculus with 8 samples.

Results

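Collagens and the enzymes that process them were followed in mouse fibroblast lines on 51 distinct rows among the 18172 distinct rows of an expression table. The members are every gene whose symbol is that of a collagen alpha chain, together with the prolyl 4-hydroxylase subunits P4ha1 to P4ha3, the lysyl hydroxylases Plod1 to Plod3, the lysyl oxidases Lox and Loxl1 to Loxl4, Serpinh1 and Pcolce. Of the 57 genes that this rule names, 50 had a row, 37 of them collagens and 13 enzymes or helpers. Col25a1 had 2 rows with different values, and each of the other 49 genes had 1. Col12a1, Col20a1, Col22a1, Col28a1, Col6a3, Col6a5 and Col6a6 had no row and were not analysed here.

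The study looked for genes that go with asymmetric self-renewal, a way of dividing in which cells of a line keep producing a dividing and a non-dividing daughter. Each state was represented by 1 cloned line descended from p53-null mouse fetal fibroblasts, and RNA from separate cell preparations was hybridized to 1 array each. The ASYM state was line Ind-8 (3 arrays), which carries a wild-type p53 cDNA under a zinc-responsive metallothionein promoter. The SYM state was the p53-null vector-control line Con-3 (3 arrays). The p53SYM state was line tI-3 (2 arrays), a derivative of Ind-8 with the same inducible p53 and a constitutive cDNA for IMPDH II, an enzyme of guanine nucleotide synthesis. All cultures were kept for 48 h in 65 µM ZnCl2 with puromycin at 5 µg/ml, and the p53SYM medium also held G418, at a dose that the labels and the methods text state differently. Because every state is a single clone, an effect of p53, of IMPDH II, of G418 or of the way of dividing cannot be told apart from a difference between clones. Comparison A is ASYM against SYM, comparison B is ASYM against p53SYM, and comparison C is p53SYM against SYM, so that every pair of comparisons shares the arrays of 1 state. A asks what differs once p53 is induced and division turns asymmetric, B what differs between asymmetric and symmetric lines that both have p53, and C what differs between the symmetric lines.

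Collagens are secreted proteins whose alpha chains wind around each other into a stiff helix and then assemble outside the cell into fibrils, sheets, beaded filaments or anchors. Inside the cell, hydroxylases modify prolines and lysines of the new chains and a chaperone holds the helix, and after secretion propeptides are removed and lysyl oxidases start the cross-links that harden the matrix. Fibroblasts are the main makers of type I, III, V and VI collagen, whereas type II is best known from cartilage, type X from the growth plate and type IV from basement membranes.

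The arrays and the labels were checked first. Values are log2 signals, and a row was called higher or lower where limma, fitted over all rows and arrays, gave an adjusted p under 0.05. SYM replicate 3 stood apart: its 18S ribosomal RNA rows averaged 10.6 on the log2 scale, against 5.58 to 6.46 on the 7 other arrays. The hybridization controls, bacterial and phage RNAs added to every hybridization mix in fixed amounts, averaged 9.95, 9.88 and 9.89 on the ASYM arrays, 9.94, 10.0 and 10.4 on the SYM arrays, and 10.2 and 10.5 on the p53SYM arrays. They were thus high on SYM replicate 3 and on both p53SYM arrays, and only the SYM arrays hold both levels. A block for this level is thus sized by SYM replicate 3 against SYM replicates 1 and 2 alone. With it, each B difference is shifted by that amount, and C sets the p53SYM arrays against SYM replicate 3 alone. Whether calls lost with it reflect the hybridization or that 1 array, which stood apart, was not tested. Member counts are therefore given with this level as a block in the fit and without SYM replicate 3 beside the main counts. Trp53 read 5.68, 5.87 and 5.80 on the ASYM arrays, 5.21, 5.29 and 5.27 on the SYM arrays and 5.60 and 5.69 on the p53SYM arrays. Its SYM values lay under all others, and it was called higher in A (log2 fold change 0.53 ± 0.09 SE, limma adjusted p = 0.0018) and in C (log2 fold change 0.39 ± 0.10 SE, limma adjusted p = 0.0141). The C call was lost without p53SYM replicate 2 (limma adjusted p = 0.106) and with the hybridization-control level as a block (0.101), with 0.0122 to 0.106 over 18 alternatives. Cdkn1a, a cell cycle inhibitor and classic p53 target, read 9.70, 9.70 and 9.59 on the ASYM arrays, 5.73, 5.81 and 6.03 on the SYM arrays and 7.55 and 7.33 on the p53SYM arrays. The 3 states did not overlap, with ASYM highest, p53SYM between and SYM lowest, and Cdkn1a was called in A, B and C (log2 fold change 3.81, 2.22 and 1.59, limma adjusted p = 1.70e-08, 3.37e-06 and 1.60e-05). Mdm2, the ubiquitin ligase that p53 switches on, had the same order (log2 fold change 2.00 in A, 1.28 in B and 0.72 in C, limma adjusted p = 8.52e-06, 2.53e-04 and 0.00468). Impdh2 read 12.16, 12.19 and 12.22 on the ASYM arrays, 12.51, 12.56 and 12.53 on the SYM arrays and 12.34 and 12.38 on the p53SYM arrays, so its level in p53SYM lay between the other states and not above them (log2 fold change -0.17 ± 0.09 SE, limma adjusted p = 0.163 in B). It was called lower in A (log2 fold change -0.34 ± 0.08 SE, limma adjusted p = 0.0112). Whether the probes of this row detect the introduced IMPDH II cDNA was not tested. Of the 9 fibroblast markers measured, 7 lay above the dim end of the arrays (4.29, the 25th percentile of row means). Vim, the intermediate filament of mesenchymal cells, had the highest mean over the 8 arrays, with values from 13.56 to 14.08, and Thy1 and Fap lay at the dim end, with means over the 8 arrays under that level. In these bulk samples, fewer cells of a type and less RNA per cell cannot be told apart, and the precision of all values is limited by how few arrays there are.

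Of the 51 member rows, 38 lay above the dim end and 13 at or under it. The 13 dim rows are those of Col24a1, Col4a3, Col4a4, Col4a6, Col8a2, Col26a1, Col14a1, Col19a1, Col9a2, Col9a3, Col13a1, Col17a1 and Col23a1, which ranged from 3.00 to 4.37. limma called 0 of these 13 in A, B and C, with 0, 0 and 1 at an unadjusted p under 0.05, and the rank product test called 0 as well. Over all 18172 rows, 13629 of them above the dim end, limma called 1970 higher and 1857 lower in A. Of these, 1926 and 1788 lay above the dim end. In B it called 2893 and 2691, with 2851 and 2200 above it, and in C 1867 and 2827, with 1670 and 2786 above it. Shares of all rows at an unadjusted p under 0.05 were not counted. Of the 13 dim members, Col26a1 was called lower in B (limma adjusted p = 0.0173) and higher in C (0.0232) with replicate number as a block, with 0.0173 to 0.92 and 0.0232 to 0.919 over 17 alternatives, and was chosen after its values were seen.

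Most member calls fell in B and C, the comparisons that use the p53SYM arrays. In A, limma called 8 members higher (10.8% of all rows were called higher) and 2 lower (10.2% of all rows). In B it called 21 higher (15.9% of all rows) and 5 lower (14.8% of all rows). In C it called 1 higher (10.3% of all rows) and 18 lower (15.6% of all rows). As shares of the 51 member rows, these counts are 15.7% and 3.92% in A, 41.2% and 9.80% in B, and 1.96% and 35.3% in C. The 5 lower calls in B are of 4 genes, since both rows of Col25a1 are among them. The members' median log2 fold change was -0.04 in A, 0.14 in B and -0.07 in C, against -0.06, -0.06 and 0.03 over all rows. Among the 38 member rows above the dim end it was 0.46 in B and -0.32 in C, against 0.01 and -0.01 over all rows above the dim end. The heat map of deviations by array shows both p53SYM arrays in blue for most fibril-forming chains, for Col4a1, Col4a2, Col6a1 and Col6a2 and for Plod1 and Plod2.

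**Figure D1:**
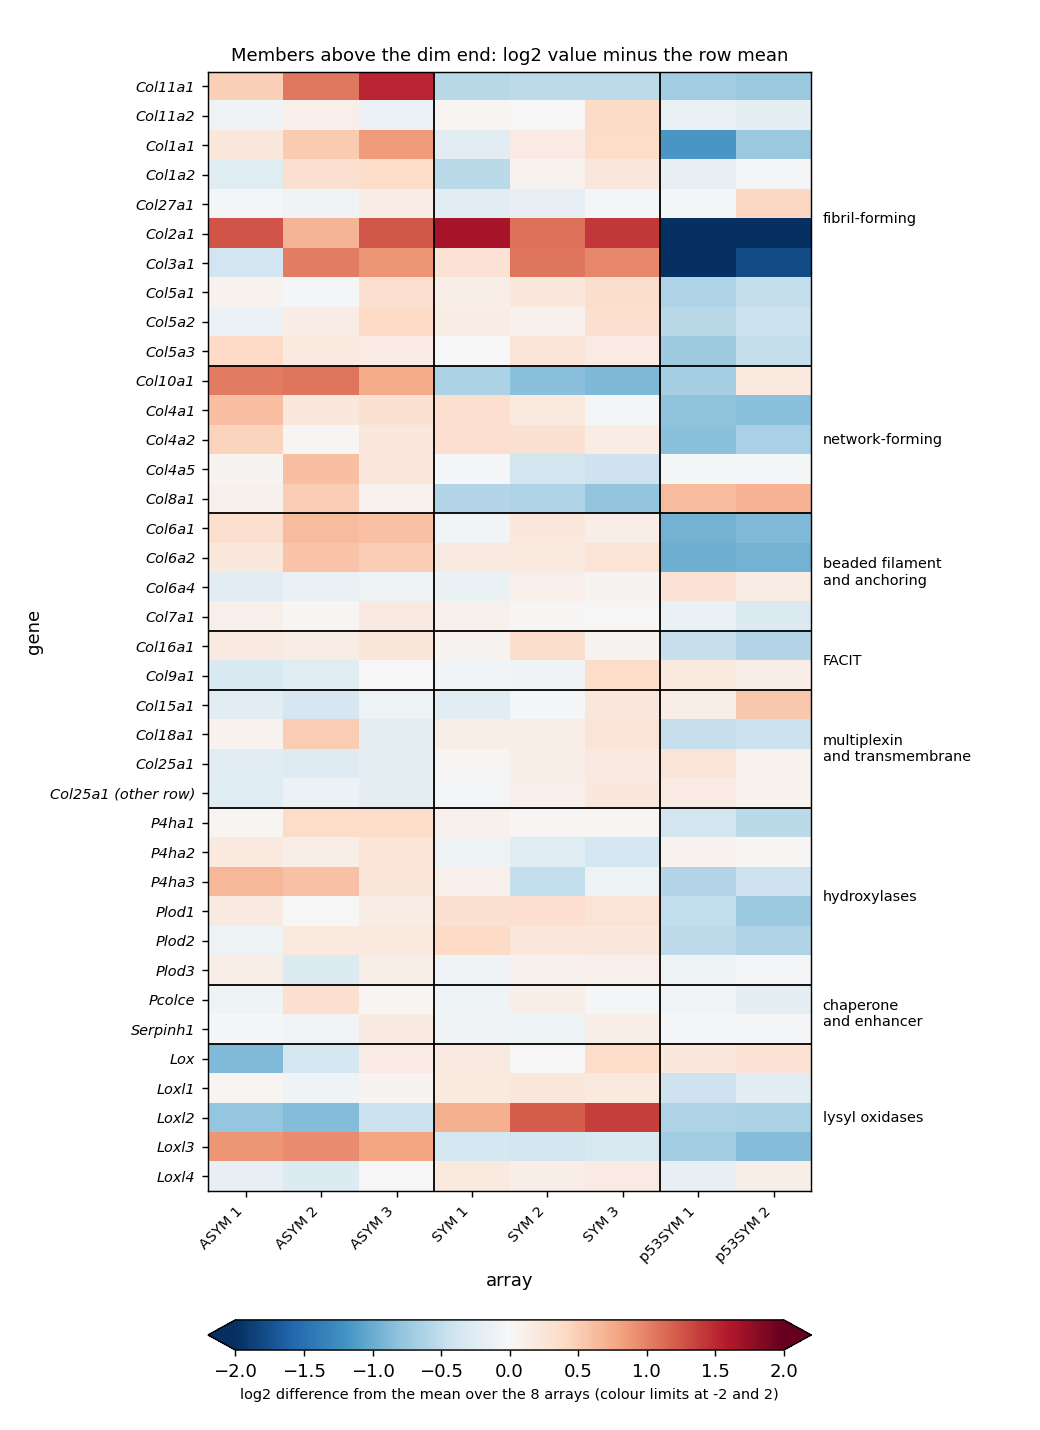
Log2 value minus the row mean over the 8 arrays (colour) for the 38 member rows above the dim end, by array and by role. Both p53SYM arrays are the lowest for Col2a1, Col3a1, Col1a1, Col6a2 and Plod1, and the highest for Col8a1.

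The rank product test, which ranks rows within pairs of arrays, called fewer rows at a percentage of false positives (pfp) under 0.05. In A it called 3 members higher (2.17% of all rows) and 1 lower (1.52% of all rows). In B it called 9 higher (1.66% of all rows) and 0 lower (0.451% of all rows), where limma called 5 lower and 7 were lower at an unadjusted p under 0.05. Shares of all rows at that unadjusted threshold, here and below, were not counted. In C it called 1 higher (0.638% of all rows) and 4 lower (1.62% of all rows). Without SYM replicate 3, limma called 7 and 1 in A (7.9% and 7.39% of all rows), 21 and 6 in B (15.8% and 15.6%), and 1 and 17 in C (9.98% and 13.9%), higher first. With the hybridization-control level as a block, limma called 7 and 1 in A (7.9% and 7.39% of all rows) and 1 and 16 in C (4.86% and 8.82%). In B that block called 2.29% of all rows higher and 0.919% lower, and so ended calls among all rows too. Its size in B rests on SYM replicate 3, the array that stood apart. The block left 6 of the 21 higher member calls, those of Col11a1, Col1a1, Col2a1, Col6a1, Col6a2 and Loxl3, with all 21 still higher in ASYM. Of the 15 that it ended, 6 had a larger log2 fold change with the block than without it (Col3a1, Col5a1, Col5a2, Col5a3, Col18a1 and P4ha3). It left 0 of the 5 lower calls in B, where limma gave 1 member at an unadjusted p under 0.05 and the rank product test called 0. All 5 still had lower values in ASYM, and 1 of them had a larger difference with the block than without it (Col8a1, log2 fold change -0.64 with it). Small counts also moved with single arrays, as did the shares of all rows called. The 8 higher calls in A became 5 without ASYM replicate 2 (7.74% of all rows). The 2 lower calls in A became 4 without ASYM replicate 3 (8.4% of all rows) and 1 without ASYM replicate 1 (8.27%), ASYM replicate 2 (6.99%), SYM replicate 2 (7.26%) or SYM replicate 3 (7.39%). The 5 lower calls in B became 1 without ASYM replicate 1 (9.43% of all rows), p53SYM replicate 1 (9.56%) or p53SYM replicate 2 (4.88%), and 2 without ASYM replicate 2 (9.37%). The 1 higher call in C became 2 without SYM replicate 1 (7.98% of all rows) and 3 without p53SYM replicate 1 (7.13%). The 18 alternatives given for single genes are limma fits and leave out the rank product test and a minimum log2 change of 1.

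Fibril-forming collagens are the chains of the striated fibrils that carry tension in skin, tendon, bone and cartilage. Of their 11 rows, 10 above the dim end, 7 were called higher in B (15.9% of all rows), 6 lower in C (15.6%) and 1 higher in A (10.8%). Their median log2 fold change was -0.03 in A, 0.68 in B and -0.68 in C. Col2a1, the chain of the cartilage fibril, read 11.78, 11.19 and 11.76 on the ASYM arrays, 12.17, 11.62 and 11.93 on the SYM arrays and 6.85 and 6.87 on the p53SYM arrays. All 6 ASYM and SYM arrays were high, both p53SYM arrays were far lower, and the p53SYM values did not overlap with any other. The level in p53SYM was 33.2-fold lower than in SYM (log2 fold change -5.05 ± 0.19 SE, limma adjusted p = 1.91e-07) and 26.4-fold lower than in ASYM (log2 fold change 4.72 ± 0.19 SE, limma adjusted p = 6.72e-07). ASYM and SYM overlapped, and Col2a1 was not called in A (log2 fold change -0.33 ± 0.17 SE, limma adjusted p = 0.211).

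Col3a1, the chain of the thin fibrils of soft tissue, read 7.91, 9.32 and 9.18 on the ASYM arrays, 8.59, 9.37 and 9.25 on the SYM arrays and 6.26 and 6.51 on the p53SYM arrays. ASYM replicate 1 and SYM replicate 1 were the lowest of their states, the p53SYM arrays lay under all of them, and ASYM overlapped with SYM. Col3a1 was 6.43-fold lower in p53SYM than in SYM (log2 fold change -2.68 ± 0.37 SE, limma adjusted p = 5.74e-04) and 5.34-fold lower than in ASYM (log2 fold change 2.42 ± 0.37 SE, limma adjusted p = 0.00121). The B call was lost with the hybridization-control level as a block (log2 fold change 2.69, limma adjusted p = 0.0546, with 1.14e-04 to 0.0546 over 18 alternatives), and the A difference of -0.27 was not called. Its sign turned without ASYM replicate 1 (log2 fold change 0.18).

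Type I collagen is the main protein of bone and skin. Col1a1, which gives 2 of the chains of each type I molecule, read 12.02, 12.33 and 12.66 on the ASYM arrays, 11.59, 11.97 and 12.17 on the SYM arrays and 10.64 and 11.06 on the p53SYM arrays. Both p53SYM arrays lay under the other 6, and the ASYM and SYM arrays overlapped. It was 2.8-fold higher in ASYM than in p53SYM (log2 fold change 1.49 ± 0.21 SE, limma adjusted p = 8.46e-04) and 2.09-fold lower in p53SYM than in SYM (log2 fold change -1.06 ± 0.21 SE, limma adjusted p = 0.00448). The C call was lost without p53SYM replicate 1 (limma adjusted p = 0.0512, with 3.72e-04 to 0.0512 over 18 alternatives). In A it was not called (log2 fold change 0.43 ± 0.19 SE, limma adjusted p = 0.143), but it was called higher with replicate number as a block (limma adjusted p = 0.00678, with 0.00678 to 0.372 over 18 alternatives). Col1a2, the partner chain, read 11.89, 12.45 and 12.50 on the ASYM arrays, 11.59, 12.20 and 12.36 on the SYM arrays and 11.97 and 12.10 on the p53SYM arrays. The p53SYM values lay inside the range of both other states, and Col1a2 was not called in A, B or C (log2 fold change 0.23, 0.25 and -0.01, limma adjusted p = 0.481, 0.434 and 0.97). The C difference of Col1a2 turned positive when the arrays were quantile-normalized again (log2 fold change 0.085). With the hybridization-control level as a block, Col1a2 was not called either, but its differences were larger in B and C (log2 fold change 0.72 and -0.33, limma adjusted p = 0.315 and 0.515). The difference between the responses of Col1a1 and Col1a2 was not tested.

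Type V collagen sits inside type I fibrils and sets their width. Col5a1 read 8.95, 8.85 and 9.22 on the ASYM arrays, 9.00, 9.10 and 9.23 on the SYM arrays and 8.26 and 8.40 on the p53SYM arrays, and Col5a2 read 11.42, 11.67 and 11.93 on the ASYM arrays, 11.67, 11.61 and 11.85 on the SYM arrays and 10.97 and 11.09 on the p53SYM arrays. In both, the p53SYM arrays lay under the other 6 and the ASYM and SYM arrays overlapped. Col5a1 was called in B (log2 fold change 0.68 ± 0.13 SE, limma adjusted p = 0.0037) and C (log2 fold change -0.78 ± 0.13 SE, limma adjusted p = 0.00146). Col5a2 was called in B (log2 fold change 0.64 ± 0.14 SE, limma adjusted p = 0.00873) and C (log2 fold change -0.68 ± 0.14 SE, limma adjusted p = 0.00619), but not without p53SYM replicate 1 (limma adjusted p = 0.0575 in B and 0.0503 in C, with 0.00399 to 0.0926 and 0.00285 to 0.0503 over 18 alternatives). Col5a3, a less common chain of the type, was called in B (log2 fold change 0.85 ± 0.12 SE, limma adjusted p = 8.91e-04) and C (log2 fold change -0.73 ± 0.12 SE, limma adjusted p = 0.00169). With the hybridization-control level as a block, the B calls of these 3 chains were lost (log2 fold change 0.86, 0.85 and 0.89, limma adjusted p = 0.0583, 0.0926 and 0.055), with 0.00237 to 0.0583 over the alternatives of Col5a1 and 7.02e-04 to 0.055 over those of Col5a3.

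Col11a1, the chain of type XI collagen that starts thin cartilage fibrils, read 4.91, 5.48 and 5.94 on the ASYM arrays, 3.86, 3.90 and 3.90 on the SYM arrays and 3.73 and 3.68 on the p53SYM arrays. All ASYM arrays were above the dim end, and all SYM and p53SYM arrays were under it. It was called higher in A (log2 fold change 1.56 ± 0.20 SE, limma adjusted p = 5.13e-04) and in B (log2 fold change 1.74 ± 0.22 SE, limma adjusted p = 5.04e-04), in all 18 alternatives of each. Against arrays under the dim end, the sizes of these differences are at best lower bounds. SYM and p53SYM did not overlap, but the C difference was not called (log2 fold change -0.19 ± 0.22 SE, limma adjusted p = 0.586). Col11a2 and Col27a1, the other fibril-forming chains above the dim end, were not called in A, B or C, and their arrays ranged from 4.44 to 5.17. In C, Col11a2 was called lower with the hybridization-control level as a block (limma adjusted p = 0.0283) and with a second quantile normalization (0.0199), and Col27a1 was called higher without p53SYM replicate 1 (0.0223) and with replicate number as a block (0.04), with 0.0199 to 0.321 and 0.0223 to 0.613 over 18 alternatives.

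**Figure D2:**
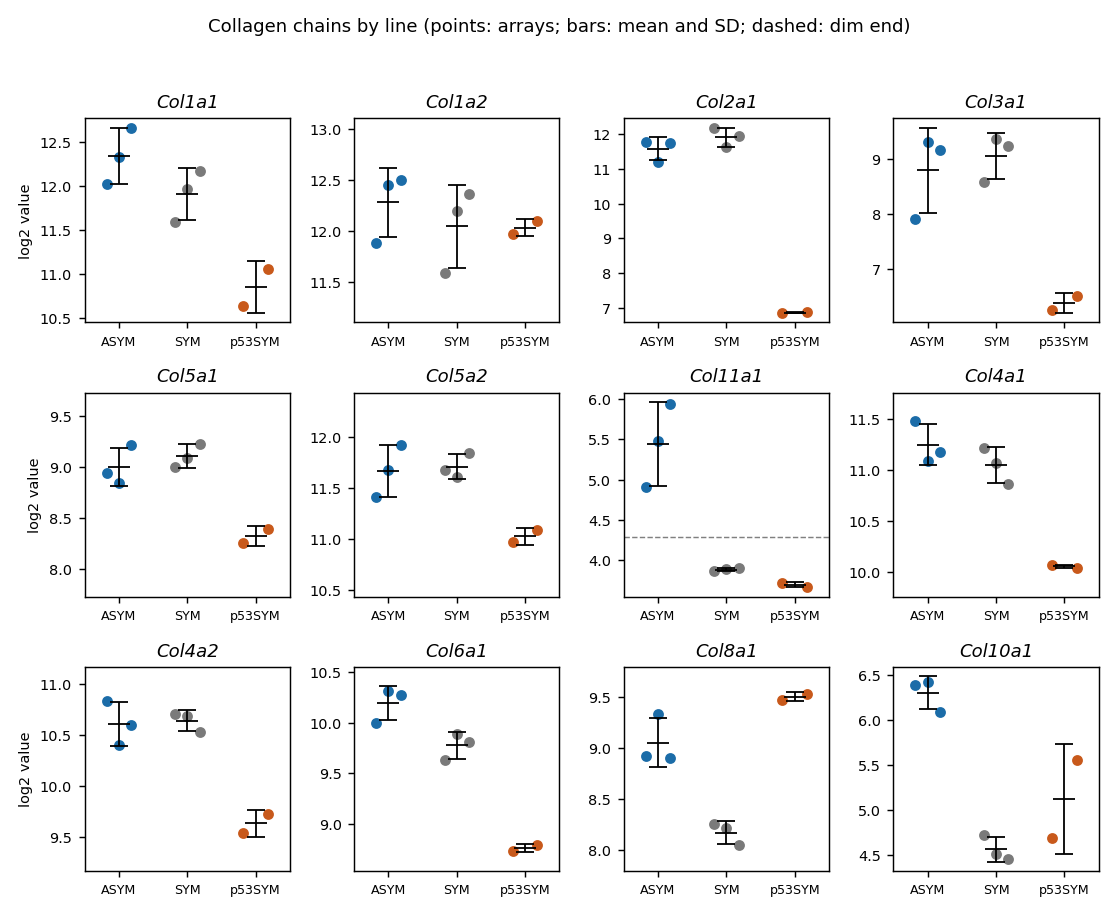
Log2 value on each array (points) with mean and SD (bars) by line for 12 collagen chains, with the dim end as a dashed line where it falls on the axis. Col2a1 lies between 11.19 and 12.17 on the ASYM and SYM arrays and at 6.85 and 6.87 on the p53SYM arrays, whereas the 3 lines overlap for Col1a2.

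Reference promoter sequences were at hand for 38 of the 50 measured genes, as 300-base windows of mouse assembly GRCm38.p6 from RefSeq that run from 250 bases before the start site to 50 after it. Col14a1, Col1a1, Col26a1, Col2a1, Col4a3, Col5a2, Col9a3, Lox, Loxl1, Loxl2, Loxl3 and Plod2 had none. The windows were searched on both strands for the TATA box letters TATAAA, for CCAAT, for the GC box letters GGGCGG and for the decamer consensus of p53. The TATA box letters were found for 7 of the 38 genes and in 13.6% of all 32851 promoter windows, CCAAT for 14 genes and in 37.4%, the GC box letters for 27 genes and in 35.7%, and the p53 decamer for 2 genes (Col17a1 and Col9a2) and in 8.36%. A match is a description of the letters only. The windows of Col3a1 (chr1:45311288-45311587, plus strand) and Col1a2 (chr6:4505368-4505667, plus strand) are shown because Col3a1 was called lower in C and Col1a2, another fibril chain, was not, though the difference between these genes was not tested, and that of Col8a1 (chr16:57754688-57754987, minus strand) because it is the member called higher in C. Capitals mark TATA box, CCAAT and GC box matches on either strand.
Col3a1: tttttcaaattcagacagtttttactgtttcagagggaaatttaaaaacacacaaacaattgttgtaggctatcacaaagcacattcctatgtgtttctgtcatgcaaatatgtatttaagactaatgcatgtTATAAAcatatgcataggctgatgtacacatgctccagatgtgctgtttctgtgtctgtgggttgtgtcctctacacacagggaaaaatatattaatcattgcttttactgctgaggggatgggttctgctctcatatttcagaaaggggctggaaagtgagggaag
Col1a2: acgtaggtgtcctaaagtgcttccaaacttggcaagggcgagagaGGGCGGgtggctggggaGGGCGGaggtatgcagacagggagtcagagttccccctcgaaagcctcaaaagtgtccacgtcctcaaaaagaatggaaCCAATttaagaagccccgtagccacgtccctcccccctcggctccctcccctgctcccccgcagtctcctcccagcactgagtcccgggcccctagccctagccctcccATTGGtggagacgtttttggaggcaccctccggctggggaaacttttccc
Col8a1: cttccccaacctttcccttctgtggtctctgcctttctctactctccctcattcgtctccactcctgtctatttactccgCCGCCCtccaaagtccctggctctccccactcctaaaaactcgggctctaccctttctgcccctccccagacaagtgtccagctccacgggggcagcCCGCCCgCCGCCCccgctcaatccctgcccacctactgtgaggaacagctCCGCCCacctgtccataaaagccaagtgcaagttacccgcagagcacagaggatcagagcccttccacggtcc

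Network-forming collagens build sheets instead of fibrils. Of their 9 rows, 5 above the dim end, 3 were called higher in A (10.8% of all rows). In B, 3 were called higher and 1 lower (15.9% and 14.8% of all rows), and in C 1 higher and 2 lower (10.3% and 15.6%). Their medians were -0.03, -0.07 and 0.01. Col4a1 and Col4a2 encode the common chains of the basement membrane and lie head to head on chromosome 8. Their start sites are 21 bases apart on opposite strands, and their promoter windows share 78 bases. The Col4a2 window (chr8:11312555-11312854, plus strand) is shown because both neighbours were called in B and C, with the bases also in the Col4a1 window (chr8:11312777-11313076, minus strand) in capitals.
Col4a2: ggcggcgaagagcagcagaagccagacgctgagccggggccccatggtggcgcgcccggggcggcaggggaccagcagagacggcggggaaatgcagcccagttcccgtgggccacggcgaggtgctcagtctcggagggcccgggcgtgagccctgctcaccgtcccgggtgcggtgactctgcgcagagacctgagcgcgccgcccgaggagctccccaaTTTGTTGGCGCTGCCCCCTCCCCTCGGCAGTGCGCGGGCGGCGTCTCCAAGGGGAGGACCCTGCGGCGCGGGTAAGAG

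Col4a1 read 11.48, 11.09 and 11.18 on the ASYM arrays, 11.21, 11.07 and 10.86 on the SYM arrays and 10.07 and 10.04 on the p53SYM arrays, and Col4a2 read 10.83, 10.40 and 10.60 on the ASYM arrays, 10.71, 10.69 and 10.53 on the SYM arrays and 9.55 and 9.73 on the p53SYM arrays. Both chains were lowest on the p53SYM arrays, which did not overlap with the others, while ASYM and SYM overlapped. Col4a1 was 2.29-fold higher in ASYM than in p53SYM (log2 fold change 1.19 ± 0.14 SE, limma adjusted p = 2.75e-04) and 1.99-fold lower in p53SYM than in SYM (log2 fold change -0.99 ± 0.14 SE, limma adjusted p = 6.40e-04). Col4a2 gave 1.97-fold in B (log2 fold change 0.98 ± 0.13 SE, limma adjusted p = 6.82e-04) and 2.01-fold in C (log2 fold change -1.01 ± 0.13 SE, limma adjusted p = 4.91e-04). The B calls were lost with the hybridization-control level as a block (log2 fold change 0.91 and 0.81, limma adjusted p = 0.0525 and 0.0875, with 9.60e-05 to 0.0525 over 18 alternatives for Col4a1 and 2.62e-04 to 0.0875 for Col4a2), and neither gene was called in A. Col4a5, a chain of kidney and smooth muscle basement membranes, was called higher in A (log2 fold change 0.57 ± 0.15 SE, limma adjusted p = 0.0197). That call was lost without ASYM replicate 2 (limma adjusted p = 0.0679), without SYM replicate 2 (0.0718), without SYM replicate 3 (0.0756) and with the hybridization-control level as a block (0.0756), with 0.0108 to 0.0756 over 18 alternatives.

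Col8a1, a short chain of vessel walls and the cornea, read 8.93, 9.33 and 8.91 on the ASYM arrays, 8.26, 8.22 and 8.05 on the SYM arrays and 9.48 and 9.54 on the p53SYM arrays. The 3 states did not overlap, with SYM lowest, ASYM between and p53SYM highest. It was called higher in A (log2 fold change 0.88 ± 0.12 SE, limma adjusted p = 7.68e-04) and in C (log2 fold change 1.33 ± 0.14 SE, limma adjusted p = 1.25e-04), where it was 2.52-fold higher in p53SYM and the 1 member called higher. The lower call in B (log2 fold change -0.45 ± 0.14 SE, limma adjusted p = 0.031) was lost without ASYM replicate 1 (limma adjusted p = 0.0895), ASYM replicate 3 (0.0833), p53SYM replicate 1 (0.0883) or p53SYM replicate 2 (0.157), and with the hybridization-control level as a block (log2 fold change -0.64, limma adjusted p = 0.162), with 0.00689 to 0.162 over 18 alternatives.

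Col10a1, the network chain of hypertrophic cartilage, read 6.39, 6.42 and 6.09 on the ASYM arrays, 4.72, 4.51 and 4.46 on the SYM arrays and 4.69 and 5.55 on the p53SYM arrays. All ASYM arrays were above all others, and p53SYM replicate 2 was well above replicate 1, which lay inside the SYM range. It was called higher in A (log2 fold change 1.74 ± 0.19 SE, limma adjusted p = 2.00e-04), 3.33-fold, and in B (log2 fold change 1.18 ± 0.21 SE, limma adjusted p = 0.00314), 2.26-fold. The SYM arrays and p53SYM replicate 1 lay close to the dim end, so these sizes are at best lower bounds. The B call was lost with the hybridization-control level as a block (log2 fold change 1.02, limma adjusted p = 0.171, with 0.00118 to 0.171 over 18 alternatives). Its B log2 fold change ran from 0.75 to 1.61 when single arrays were left out. The C difference was not called (log2 fold change 0.56 ± 0.21 SE, limma adjusted p = 0.0817), but it was without p53SYM replicate 1 (log2 fold change 0.99, limma adjusted p = 0.00568, with 0.00568 to 0.692 over 18 alternatives).

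Beaded-filament and anchoring collagens link cells and basement membranes to the fibrils. Of their 5 rows, 4 above the dim end, 1 was called higher in A (10.8% of all rows). In B, 3 were called higher and 1 lower (15.9% and 14.8% of all rows), and in C 2 lower (15.6%). Their medians were 0.06, 0.31 and -0.25. Col6a1, a chain of the beaded filament around most cells, read 10.00, 10.31 and 10.27 on the ASYM arrays, 9.63, 9.89 and 9.81 on the SYM arrays and 8.74 and 8.79 on the p53SYM arrays. Col6a2, its partner chain, read 9.37, 9.74 and 9.65 on the ASYM arrays, 9.34, 9.36 and 9.44 on the SYM arrays and 8.18 and 8.22 on the p53SYM arrays. Both were lowest on the p53SYM arrays, with no overlap with the other 6. Col6a1 was 2.68-fold higher in ASYM than in p53SYM (log2 fold change 1.42 ± 0.12 SE, limma adjusted p = 5.63e-05) and 2.01-fold lower in p53SYM than in SYM (log2 fold change -1.01 ± 0.12 SE, limma adjusted p = 3.01e-04). Col6a2 was called in B (log2 fold change 1.39 ± 0.12 SE, limma adjusted p = 5.48e-05) and C (log2 fold change -1.18 ± 0.12 SE, limma adjusted p = 1.06e-04), and both genes kept these calls in all 18 alternatives. The rank product test called both in B and Col6a2 in C, but not Col6a1 in C. In A, the ASYM arrays of Col6a1 lay above the SYM arrays (log2 fold change 0.41 ± 0.11 SE, limma adjusted p = 0.0215), a call lost without ASYM replicate 2 (limma adjusted p = 0.0837), ASYM replicate 3 (0.0689) or SYM replicate 1 (0.0673), with 0.0105 to 0.0837 over 18 alternatives. Col6a2 overlapped between ASYM and SYM and was called in A only without ASYM replicate 1 (limma adjusted p = 0.0473, with 0.0473 to 0.504 over 18 alternatives). Col7a1, the anchoring fibril of skin, was called higher in B (log2 fold change 0.31 ± 0.10 SE, limma adjusted p = 0.0351), and Col6a4 was called lower in B (log2 fold change -0.36 ± 0.11 SE, limma adjusted p = 0.0273); these genes, outside the rule for named genes, were chosen after their values were seen. Neither call held with the hybridization-control level as a block (limma adjusted p = 0.437 and 0.423) or without ASYM replicate 1 (0.0728 and 0.0765), p53SYM replicate 1 (0.0506 and 0.147) or p53SYM replicate 2 (0.224 and 0.0654). The Col7a1 call was also lost without ASYM replicate 3 (0.0951) or SYM replicate 2 (0.0547), with the 2 compared lines only (0.0568), centred arrays (0.0535) or a trend in the prior (0.0533), and the Col6a4 call without ASYM replicate 2 (0.0541). A second quantile normalization ended both (log2 fold change 0.18 and -0.17, limma adjusted p = 0.201 and 0.262). The Col7a1 call was kept in 8 of 18 alternatives and the Col6a4 call in 12 of 18, with 0.0312 to 0.437 and 0.0141 to 0.423 over the 18. The ASYM arrays of Col6a4 lay from 4.29 to 4.43, close to the dim end, so the size of its difference is at best a lower bound.

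Collagens that ride on fibrils, the FACIT class, had 6 rows, 2 above the dim end. Of these 6, 1 was called higher in B (15.9% of all rows) and 1 lower in C (15.6%), in both cases Col16a1. Their medians were -0.06, -0.02 and -0.05 in A, B and C. In B, Col9a1, which lay above the dim end, was called lower without SYM replicate 3 (limma adjusted p = 0.0422) and with replicate number as a block (0.00887), with 0.00887 to 0.863 over 18 alternatives, and the dim Col9a3 was called higher with a second quantile normalization (0.0398, with 0.0398 to 0.708 over 17); both genes were chosen after their values were seen. In A, their log2 fold changes lay between -0.26 and 0.08 and none passed the test. Col16a1 read 8.45, 8.42 and 8.52 on the ASYM arrays, 8.33, 8.63 and 8.34 on the SYM arrays and 7.81 and 7.70 on the p53SYM arrays. Its p53SYM arrays lay under the other 6 and ASYM overlapped with SYM (log2 fold change 0.71 ± 0.11 SE, limma adjusted p = 0.00171 in B, and log2 fold change -0.68 ± 0.11 SE, limma adjusted p = 0.00186 in C). The B call was lost with the hybridization-control level as a block (log2 fold change 0.56, limma adjusted p = 0.145, with 0.00121 to 0.145 over 18 alternatives).

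Multiplexins, which join basement membranes to the tissue under them, and the transmembrane collagens had 7 rows, 4 above the dim end. Of these 7, 1 was called lower in A (10.2% of all rows) and 1 lower in C (15.6%). In B, 1 was called higher and 3 lower (15.9% and 14.8% of all rows), the 3 being Col15a1 and both rows of Col25a1. Their medians were -0.09, -0.16 and 0.07 in A, B and C. Col18a1, the parent of endostatin, read 5.98, 6.42 and 5.73 on the ASYM arrays, 6.03, 6.05 and 6.17 on the SYM arrays and 5.46 and 5.48 on the p53SYM arrays. The p53SYM arrays lay under the others and ASYM overlapped with SYM. It was called in B (log2 fold change 0.57 ± 0.17 SE, limma adjusted p = 0.0259) and C (log2 fold change -0.61 ± 0.17 SE, limma adjusted p = 0.0209). Both calls were lost without p53SYM replicate 1 (limma adjusted p = 0.0991 and 0.0929), without p53SYM replicate 2 (0.117 and 0.101) and with the hybridization-control level as a block (0.218 and 0.079), and the C call also without SYM replicate 3 (0.0542), with 0.0072 to 0.218 over 18 alternatives in B and 0.0035 to 0.101 in C. Col15a1, the other multiplexin, read 4.51, 4.40 and 4.64 on the ASYM arrays, 4.53, 4.71 and 4.97 on the SYM arrays and 4.87 and 5.28 on the p53SYM arrays. The p53SYM arrays lay above the ASYM arrays and overlapped with the SYM arrays. All ASYM arrays of Col15a1 lay close to the dim end, so the size of its B difference is at best a lower bound. It was called lower in B (log2 fold change -0.56 ± 0.16 SE, limma adjusted p = 0.0219), a call lost without ASYM replicate 1 (limma adjusted p = 0.052), ASYM replicate 2 (0.0656) or p53SYM replicate 2 (log2 fold change -0.36, limma adjusted p = 0.21), with the hybridization-control level as a block (log2 fold change -0.21, limma adjusted p = 0.675) and with a second quantile normalization (log2 fold change -0.37, limma adjusted p = 0.0672), with 0.00593 to 0.675 over 18 alternatives. In C it was not called (log2 fold change 0.34 ± 0.16 SE, limma adjusted p = 0.137) except with replicate number as a block (limma adjusted p = 0.0374, with 0.0374 to 0.768 over 18 alternatives). Col25a1, a transmembrane collagen outside the rule for named genes and chosen after its values were seen, was called lower in A on its brighter row (log2 fold change -0.33 ± 0.09 SE, limma adjusted p = 0.0245) and not on its dimmer row (log2 fold change -0.27, limma adjusted p = 0.059), which was called in 4 of 17 alternatives, among them without SYM replicate 1 (0.0387, with 0.0245 to 0.185 over the 17). The A call was lost without ASYM replicate 1 (limma adjusted p = 0.0586), ASYM replicate 2 (0.0807), SYM replicate 2 (0.0751) or SYM replicate 3 (0.0832) and with the hybridization-control level as a block (0.0832), with 0.0104 to 0.0832 over 18 alternatives. Both rows were called lower in B (log2 fold change -0.38 and -0.30, limma adjusted p = 0.017 and 0.0473). The B call of the brighter row was lost without p53SYM replicate 1 (limma adjusted p = 0.111) and with the hybridization-control level as a block (0.419, with 0.0083 to 0.419 over 18 alternatives), and that of the dimmer row without SYM replicate 2 (0.0703) or any single ASYM or p53SYM array (0.0692 to 0.192) and with that block (log2 fold change -0.14, limma adjusted p = 0.709), with 0.0224 to 0.709 over its 17 alternatives, 7 of which kept the call.

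**Figure D3:**
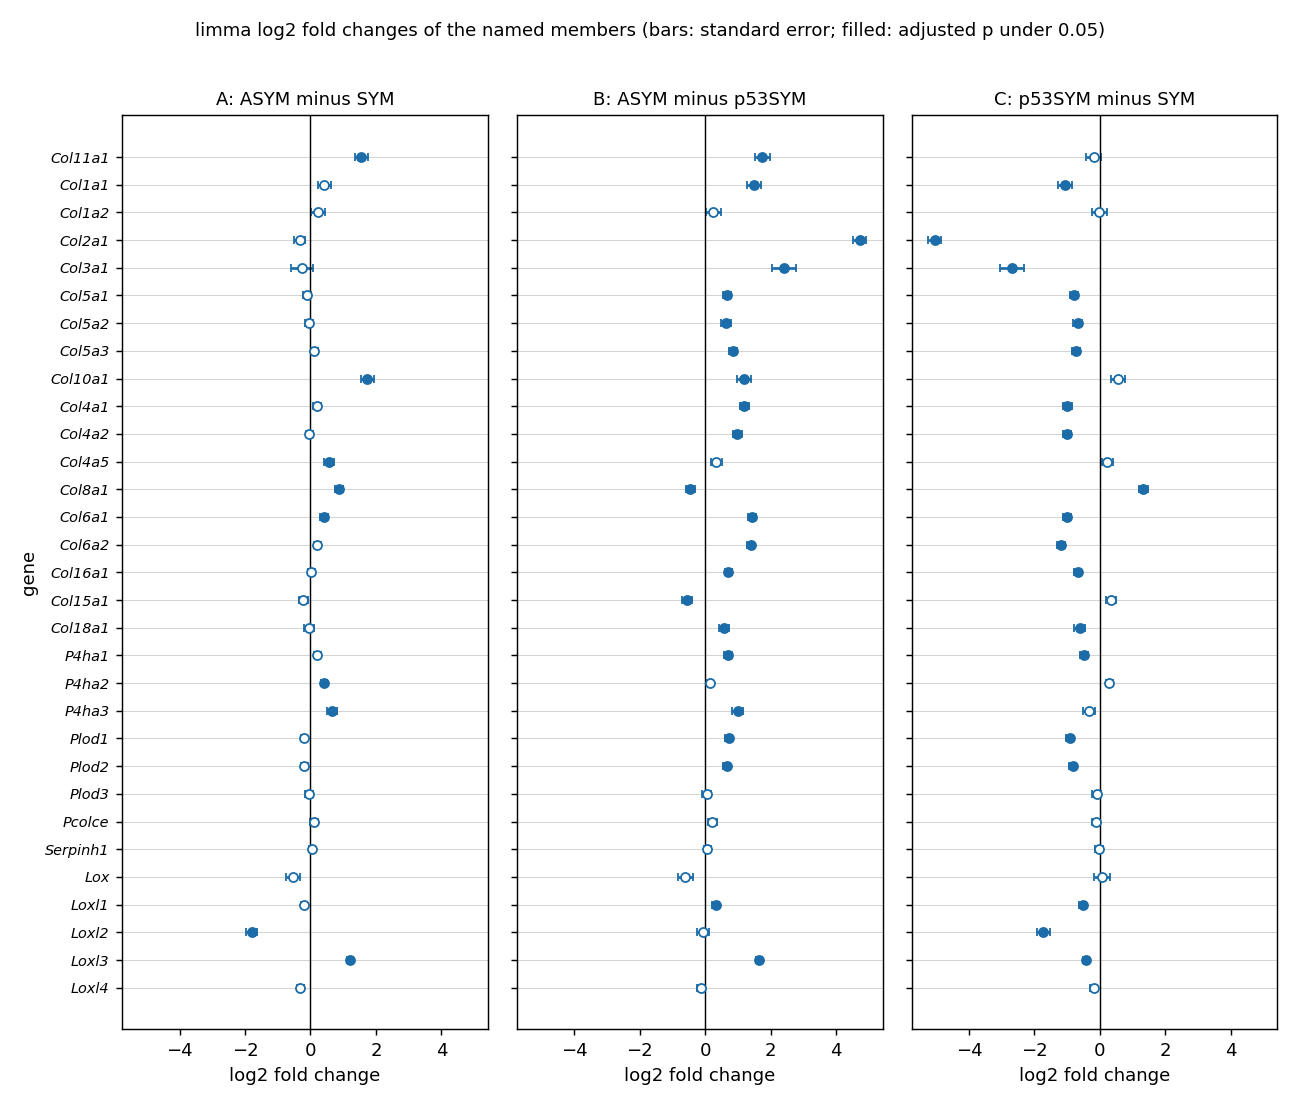
limma log2 fold changes (x axis) with standard errors (bars) of the 31 named members in comparisons A, B and C, filled where the adjusted p was under 0.05. Col2a1 reaches 4.72 in B and -5.05 in C, and Loxl2 reaches -1.79 in A and -1.73 in C.

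Hydroxylases modify collagen chains in the endoplasmic reticulum. Of their 6 rows, all above the dim end, 2 were called higher in A (10.8% of all rows), 4 higher in B (15.9%) and 3 lower in C (15.6%). Their median log2 fold changes were 0.08, 0.68 and -0.41. P4ha1, P4ha2 and P4ha3 are catalytic subunits of prolyl 4-hydroxylase, which makes the helix stable at body temperature, and Plod1, Plod2 and Plod3 hydroxylate the lysines used in cross-links. P4ha1 read 9.07, 9.39 and 9.39 on the ASYM arrays, 9.12, 9.06 and 9.04 on the SYM arrays and 8.66 and 8.49 on the p53SYM arrays. Its p53SYM arrays lay under the others and ASYM overlapped with SYM. It was called in B (log2 fold change 0.71 ± 0.12 SE, limma adjusted p = 0.00215) and C (log2 fold change -0.50 ± 0.12 SE, limma adjusted p = 0.0121). The C call was lost without p53SYM replicate 2 (limma adjusted p = 0.111) and with the hybridization-control level as a block (0.101), with 0.00544 to 0.111 over 18 alternatives. P4ha2 read 9.34, 9.29 and 9.42 on the ASYM arrays, 9.06, 8.91 and 8.81 on the SYM arrays and 9.23 and 9.19 on the p53SYM arrays. The SYM arrays were lowest and the ASYM arrays highest without overlap, and it was called in A (log2 fold change 0.43 ± 0.09 SE, limma adjusted p = 0.00861) but not in B (log2 fold change 0.14 ± 0.10 SE, limma adjusted p = 0.312) or C (log2 fold change 0.28 ± 0.10 SE, limma adjusted p = 0.071). In C it was called without SYM replicate 1 (limma adjusted p = 0.0417) and with a second quantile normalization (0.0162, with 0.0162 to 0.22 over 18 alternatives). P4ha3 read 6.67, 6.59 and 6.25 on the ASYM arrays, 6.10, 5.52 and 5.90 on the SYM arrays and 5.42 and 5.60 on the p53SYM arrays. All ASYM arrays lay above all others, and SYM overlapped with p53SYM. P4ha3 was called higher in A (log2 fold change 0.66 ± 0.16 SE, limma adjusted p = 0.0131), but not without ASYM replicate 2 (limma adjusted p = 0.0518, with 0.00786 to 0.0518 over 18 alternatives), and in B (log2 fold change 0.99 ± 0.18 SE, limma adjusted p = 0.0028), 1.99-fold.

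Among the lysyl hydroxylases, Plod1 read 8.25, 8.05 and 8.22 on the ASYM arrays, 8.36, 8.40 and 8.34 on the SYM arrays and 7.57 and 7.32 on the p53SYM arrays. Plod2, whose form modifies the ends of the chains, read 8.79, 9.08 and 9.09 on the ASYM arrays, 9.29, 9.11 and 9.11 on the SYM arrays and 8.38 and 8.29 on the p53SYM arrays. In both, SYM lay above ASYM by a small margin and p53SYM lay lowest, with no overlap between the states. Plod1 was 1.9-fold lower in p53SYM than in SYM (log2 fold change -0.92 ± 0.11 SE, limma adjusted p = 2.55e-04) and 1.65-fold lower than in ASYM (log2 fold change 0.73 ± 0.11 SE, limma adjusted p = 0.00115). Plod2 was 1.78-fold lower in p53SYM than in SYM (log2 fold change -0.84 ± 0.12 SE, limma adjusted p = 7.37e-04) and 1.57-fold lower than in ASYM (log2 fold change 0.65 ± 0.12 SE, limma adjusted p = 0.00332). Neither was called in A (limma adjusted p = 0.185 and 0.266). Plod3, which also adds sugars to hydroxylysine, read 9.99, 9.58 and 9.99 on the ASYM arrays, 9.79, 9.94 and 9.96 on the SYM arrays and 9.77 and 9.83 on the p53SYM arrays. The 3 states overlapped, and Plod3 was not called in A, B or C (log2 fold change -0.04, 0.05 and -0.09, limma adjusted p = 0.842, 0.789 and 0.647). With the hybridization-control level as a block, the B calls of P4ha1, P4ha3, Plod1 and Plod2 were lost (limma adjusted p = 0.119, 0.0937, 0.085 and 0.176), with 0.0012 to 0.119, 0.00169 to 0.0937, 8.40e-04 to 0.085 and 0.00207 to 0.176 over their 18 alternatives. Their log2 fold changes with this block were 0.66, 1.08, 0.69 and 0.56.

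Serpinh1, the chaperone of the helix, read 11.82, 11.78 and 12.01 on the ASYM arrays, 11.76, 11.75 and 11.97 on the SYM arrays and 11.80 and 11.80 on the p53SYM arrays. Pcolce, which helps to remove the C-terminal propeptide, read 12.17, 12.59 and 12.30 on the ASYM arrays, 12.17, 12.38 and 12.22 on the SYM arrays and 12.21 and 12.07 on the p53SYM arrays. All arrays of both genes were bright, and the 3 states overlapped. Neither gene was called in A, B or C (log2 fold change of Serpinh1 0.04, 0.07 and -0.03, limma adjusted p = 0.808, 0.659 and 0.882). For Pcolce the log2 fold changes were 0.10, 0.21 and -0.12 (limma adjusted p = 0.613, 0.237 and 0.558).

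Lysyl oxidases oxidise lysines of secreted collagen and elastin. Of their 5 rows, all above the dim end, 1 was called higher and 1 lower in A (10.8% and 10.2% of all rows). In B, 2 were called higher (15.9% of all rows), and in C 3 lower (15.6%). Their medians were -0.32, -0.07 and -0.43. Loxl2 read 4.15, 4.05 and 4.49 on the ASYM arrays, 5.64, 6.13 and 6.30 on the SYM arrays and 4.30 and 4.29 on the p53SYM arrays. The SYM arrays were high, and the ASYM and p53SYM arrays lay near the dim end and overlapped. It was called lower in A (log2 fold change -1.79 ± 0.17 SE, limma adjusted p = 8.10e-05) and in C (log2 fold change -1.73 ± 0.19 SE, limma adjusted p = 1.60e-04), in all 18 alternatives of each. Because the lower arrays lay near the dim end, the sizes of these differences are at best lower bounds. The B difference was not called (log2 fold change -0.07 ± 0.19 SE, limma adjusted p = 0.811), and its sign turned when the arrays were quantile-normalized again (log2 fold change 0.12). Loxl3 read 9.88, 9.94 and 9.78 on the ASYM arrays, 8.65, 8.63 and 8.68 on the SYM arrays and 8.30 and 8.14 on the p53SYM arrays. The 3 states did not overlap, with ASYM highest and p53SYM lowest. It was 2.32-fold higher in ASYM than in SYM (log2 fold change 1.22 ± 0.09 SE, limma adjusted p = 1.72e-05) and 3.13-fold higher than in p53SYM (log2 fold change 1.65 ± 0.10 SE, limma adjusted p = 7.09e-06), again in all 18 alternatives of each. The smaller C difference was called (log2 fold change -0.43 ± 0.10 SE, limma adjusted p = 0.00886), but not without p53SYM replicate 2 (limma adjusted p = 0.0892) or with the hybridization-control level as a block (0.0548), with 0.00577 to 0.0892 over 18 alternatives.

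Lox, the founding member of the family, read 10.58, 11.11 and 11.62 on the ASYM arrays, 11.64, 11.47 and 11.82 on the SYM arrays and 11.66 and 11.75 on the p53SYM arrays. The ASYM arrays were spread widely, with replicate 1 lowest and replicate 3 inside the SYM range. Lox was not called in A (log2 fold change -0.54 ± 0.21 SE, limma adjusted p = 0.1) or B (log2 fold change -0.61 ± 0.24 SE, limma adjusted p = 0.0757). It was called lower in both without ASYM replicate 3 (log2 fold change -0.80 and -0.87, limma adjusted p = 0.00793 and 0.00777) and with replicate number as a block (limma adjusted p = 0.0298 and 0.00995), with 0.00793 to 0.286 over 18 alternatives in A and 0.00777 to 0.705 in B. Loxl1, which is needed for elastic fibres, read 11.97, 11.84 and 11.99 on the ASYM arrays, 12.14, 12.16 and 12.13 on the SYM arrays and 11.51 and 11.72 on the p53SYM arrays. SYM was highest, ASYM between and p53SYM lowest, with no overlap. It was called lower in C (log2 fold change -0.52 ± 0.10 SE, limma adjusted p = 0.00376) in all 18 alternatives, but not by the rank product test or with a minimum log2 change of 1. The B call (log2 fold change 0.32 ± 0.10 SE, limma adjusted p = 0.0362) was lost without ASYM replicate 1 (limma adjusted p = 0.0871), ASYM replicate 3 (0.0889), SYM replicate 2 (0.0556) or p53SYM replicate 1 (0.218) and with the hybridization-control level (0.387) or replicate number (0.0577) as a block, the 2 compared lines only (0.0608), a second quantile normalization (log2 fold change 0.20, limma adjusted p = 0.198) or centred arrays (0.0622), so that 9 of 18 alternatives kept it, with 0.0165 to 0.387 over the 18. Loxl4 read 8.58, 8.48 and 8.74 on the ASYM arrays, 8.95, 8.89 and 8.92 on the SYM arrays and 8.59 and 8.87 on the p53SYM arrays. Its ASYM arrays lay under the SYM arrays, and it was not called in A (log2 fold change -0.32 ± 0.10 SE, limma adjusted p = 0.0546). It was called lower in 7 of 18 alternatives, of which 3 are 1 and the same fit in A, namely the 2 compared lines only, no p53SYM replicate 1 and no p53SYM replicate 2 (limma adjusted p = 0.0452). The others were without ASYM replicate 3 (0.0398) and with centred arrays (0.0364), rows above the 25th percentile (0.0458) or a trend in the prior (0.0448), with 0.0364 to 0.181 over the 18.

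**Figure D4:**
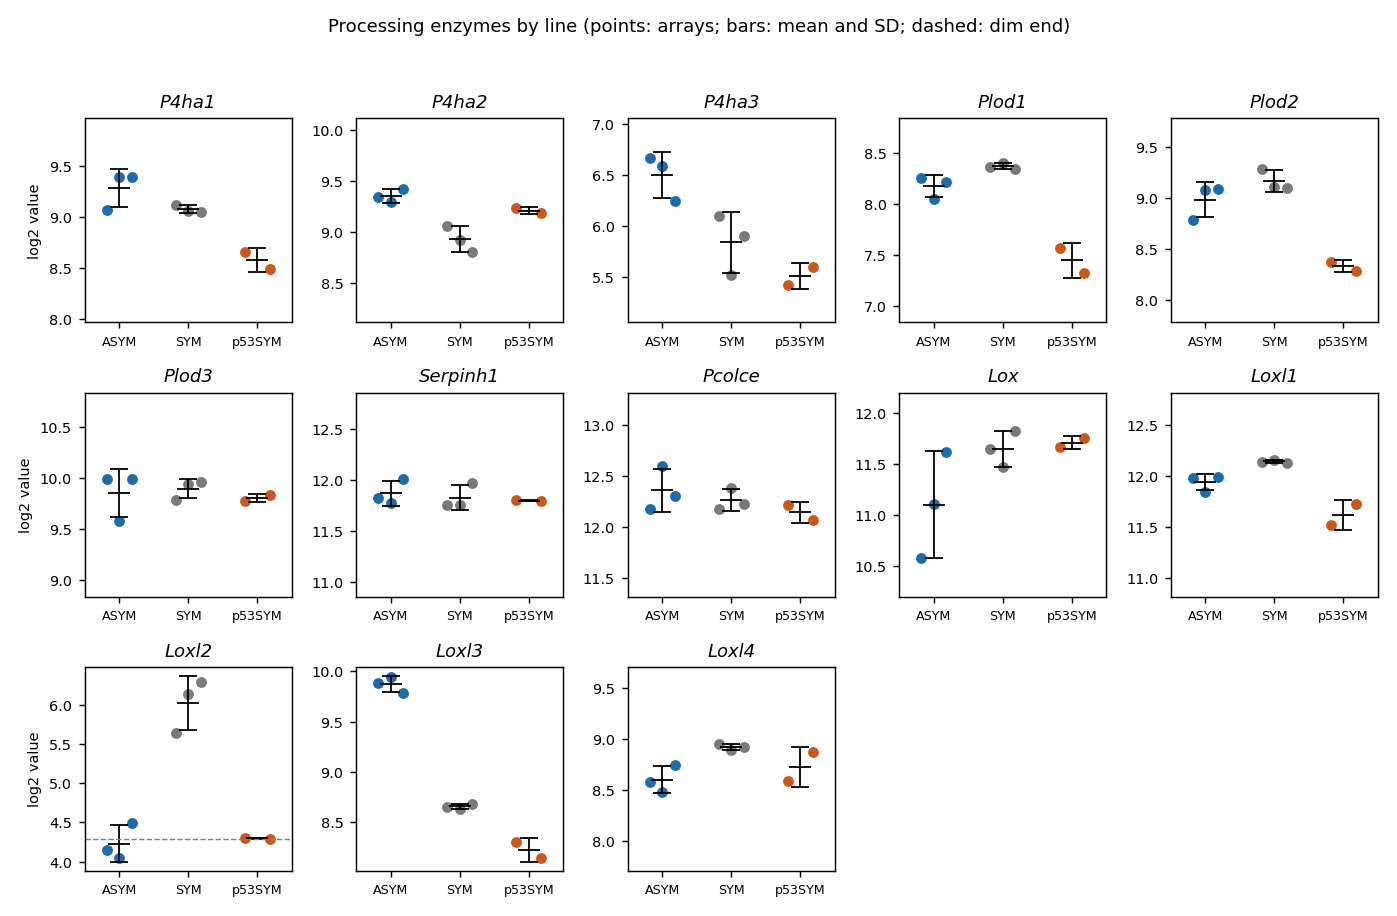
Log2 value on each array (points) with mean and SD (bars) by line for the 13 processing enzymes and helpers, with the dim end as a dashed line where it falls on the axis. Loxl3 is highest on the ASYM arrays (9.78 to 9.94), and Loxl2 is highest on the SYM arrays (5.64 to 6.30).

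Proteins that work beside the members were read from lists of other genes. Of 20 maturation partners, which fold, hydroxylate, glycosylate, export or trim procollagen, 16 were measured. Of these 16, 3 were called higher and 2 lower in A (10.8% and 10.2% of all rows). In B, 9 were called higher and 1 lower (15.9% and 14.8% of all rows), and in C 10 lower (15.6%). Their median log2 fold changes were -0.01, 0.50 and -0.46 against -0.06, -0.06 and 0.03 over all rows. Of the 9 higher calls in B (15.9% of all rows), 4 remained with the hybridization-control level as a block (2.29% of all rows), 7 without p53SYM replicate 1 (12%) and 7 without p53SYM replicate 2 (8.02%). Of the 10 lower calls in C (15.6% of all rows), 6 remained with that block (8.82% of all rows), 6 without p53SYM replicate 1 (11.9%), 6 without p53SYM replicate 2 (8.78%) and 5 with a second quantile normalization (12.5%). Fkbp14, a prolyl isomerase of the endoplasmic reticulum, read 8.57, 8.84 and 8.71 on the ASYM arrays, 7.95, 7.87 and 7.68 on the SYM arrays and 6.76 and 5.81 on the p53SYM arrays. The 3 states did not overlap, with ASYM highest and p53SYM lowest, and it was called in A (log2 fold change 0.87 ± 0.20 SE, limma adjusted p = 0.0107), B (log2 fold change 2.42 ± 0.22 SE, limma adjusted p = 8.09e-05) and C (log2 fold change -1.55 ± 0.22 SE, limma adjusted p = 7.54e-04). P3h3, a member of the prolyl 3-hydroxylase family, was called higher in A (log2 fold change 0.92 ± 0.12 SE, limma adjusted p = 4.68e-04) and B (log2 fold change 1.34 ± 0.13 SE, limma adjusted p = 1.13e-04). Bmp1, the main C-propeptidase of fibrillar procollagens, was called higher in A (log2 fold change 0.51 ± 0.09 SE, limma adjusted p = 0.00221) and B (log2 fold change 0.72 ± 0.10 SE, limma adjusted p = 5.84e-04). Adamts2, which removes the N-terminal propeptide, was called lower in A (log2 fold change -1.16 ± 0.18 SE, limma adjusted p = 0.00129) and B (log2 fold change -0.67 ± 0.20 SE, limma adjusted p = 0.0285). Its B call was lost without ASYM replicate 1 (limma adjusted p = 0.0687), ASYM replicate 2 (0.0854), p53SYM replicate 1 (0.0828) or p53SYM replicate 2 (0.156) and with the hybridization-control level as a block (log2 fold change -1.15, limma adjusted p = 0.0667), with 0.0077 to 0.156 over 18 alternatives. Colgalt1, which adds galactose to hydroxylysine, was called lower in A (log2 fold change -0.48 ± 0.10 SE, limma adjusted p = 0.00618). With the hybridization-control level as a block, Fkbp14 and P3h3 stayed called in B, and Bmp1 did not (log2 fold change 0.65, limma adjusted p = 0.0642, with 4.96e-04 to 0.0642 over 18 alternatives).

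Of 10 collagen receptors, 7 were measured, 6 above the dim end. Among the 7, 2 were called higher in A (10.8% of all rows), 3 higher in B (15.9%) and 2 lower in C (15.6%). Their medians were 0.05, 0.27 and -0.21, against -0.06, -0.06 and 0.03 over all rows. Mrc2, an endocytic receptor that takes up collagen, read 7.18, 7.18 and 7.11 on the ASYM arrays, 7.25, 7.46 and 7.09 on the SYM arrays and 5.95 and 6.18 on the p53SYM arrays. Its p53SYM arrays lay under the others (log2 fold change 1.09 ± 0.12 SE, limma adjusted p = 2.58e-04 in B, and log2 fold change -1.20 ± 0.12 SE, limma adjusted p = 1.30e-04 in C). Ddr1, a receptor tyrosine kinase for collagen, was called in A (log2 fold change 0.57 ± 0.13 SE, limma adjusted p = 0.0102) and B (log2 fold change 1.03 ± 0.14 SE, limma adjusted p = 7.87e-04). Itga1, the alpha subunit of a collagen-binding integrin, was called in A (log2 fold change 0.71 ± 0.18 SE, limma adjusted p = 0.0159) and B (log2 fold change 1.11 ± 0.20 SE, limma adjusted p = 0.00283). The A call of Itga1 was lost without ASYM replicate 3 (limma adjusted p = 0.0527, with 0.00438 to 0.0527 over 18 alternatives). The B calls of Ddr1 and Itga1 were lost with the hybridization-control level as a block (log2 fold change 0.84 and 1.15, limma adjusted p = 0.0957 and 0.11, with 2.80e-04 to 0.0957 and 0.0012 to 0.11 over 18 alternatives). The p53SYM arrays of Itga1 lay from 4.06 to 4.42, around the dim end, so the size of its B difference is at best a lower bound. Ddr1 was called lower in C (log2 fold change -0.46 ± 0.14 SE, limma adjusted p = 0.0402), but not without ASYM replicate 2 (limma adjusted p = 0.055), SYM replicate 1 (0.0904), p53SYM replicate 1 (0.079) or p53SYM replicate 2 (0.232), and 11 of 18 alternatives kept this call, with 0.00921 to 0.303 over the 18.

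All 18 fibril-associated matrix proteins of the list were measured, 14 above the dim end, and 3 were called higher and 2 lower in A (10.8% and 10.2% of all rows). In B, 6 were called higher and 1 lower (15.9% and 14.8% of all rows), and in C 3 higher and 5 lower (10.3% and 15.6%). Their medians were 0.07, 0.13 and -0.04. With the hybridization-control level as a block, 3 of the 6 higher calls in B remained (2.29% of all rows), and the lower call in B (Eln, log2 fold change -0.39 without the block and -0.21 with it, limma adjusted p = 0.554, with 0.0127 to 0.554 over 18 alternatives) and the 3 higher calls in C (Bgn, Fn1 and Thbs1) were lost. The Eln call was also lost without ASYM replicate 1 (0.0605) or p53SYM replicate 2 (0.165) and with a second quantile normalization (log2 fold change -0.25, limma adjusted p = 0.0859), and the lower calls in B numbered 2 without SYM replicate 1 (15.4% of all rows) and 2 without p53SYM replicate 1 (9.56%). Of the higher calls in C, 1 remained without SYM replicate 2 (6.97% of all rows), 1 without p53SYM replicate 1 (7.13%) and 1 without p53SYM replicate 2 (5.11%). The higher calls in A numbered 5 without ASYM replicate 1 (8.97% of all rows). With replicate number as a block, Kera and Prelp were also called lower in B (limma adjusted p = 0.0475 and 0.025). Over their 17 and 18 alternatives the values ran from 0.0335 to 0.556 and 0.025 to 0.504, and both were chosen after their values were seen. Sparc, a collagen-binding glycoprotein, read 12.96, 12.85 and 12.97 on the ASYM arrays, 12.65, 12.82 and 12.87 on the SYM arrays and 11.78 and 11.85 on the p53SYM arrays. Its p53SYM arrays lay under the other 6 (log2 fold change 1.11 ± 0.10 SE, limma adjusted p = 8.09e-05 in B, and log2 fold change -0.97 ± 0.10 SE, limma adjusted p = 1.39e-04 in C). Thbs2, a regulator of fibril shape, was called in the same comparisons (log2 fold change 1.65 ± 0.18 SE, limma adjusted p = 2.09e-04 in B, and log2 fold change -1.50 ± 0.18 SE, limma adjusted p = 2.90e-04 in C). Fn1, the fibronectin on which collagen fibrils are laid down, read 13.22, 13.14 and 13.15 on the ASYM arrays, 12.53, 12.42 and 12.47 on the SYM arrays and 12.71 and 12.79 on the p53SYM arrays. ASYM was highest and SYM lowest without overlap, with calls in A (log2 fold change 0.70 ± 0.08 SE, limma adjusted p = 2.92e-04), B (log2 fold change 0.42 ± 0.09 SE, limma adjusted p = 0.00785) and C (log2 fold change 0.28 ± 0.09 SE, limma adjusted p = 0.0474). The C call was lost when any 1 of the 8 arrays was left out (limma adjusted p = 0.0561 to 0.228, with 0.0147 to 0.228 over 18 alternatives), and the B call with the hybridization-control level as a block (0.186, with 0.00177 to 0.186 over 18 alternatives). Postn and Cthrc1, secreted proteins of remodelling matrix, were highest in SYM. Postn was called lower in A (log2 fold change -1.72 ± 0.21 SE, limma adjusted p = 3.26e-04) and in C (log2 fold change -1.48 ± 0.23 SE, limma adjusted p = 0.00119). Cthrc1 read 5.89, 5.85 and 5.74 on the ASYM arrays, 7.18, 6.91 and 7.22 on the SYM arrays and 4.92 and 5.01 on the p53SYM arrays, with no overlap between the states and calls in A (log2 fold change -1.28 ± 0.10 SE, limma adjusted p = 3.27e-05), B (log2 fold change 0.86 ± 0.12 SE, limma adjusted p = 6.19e-04) and C (log2 fold change -2.14 ± 0.12 SE, limma adjusted p = 2.17e-06).

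Because Col2a1, Col10a1 and Col11a1 are known from cartilage, 16 chondrocyte markers were read beside them, all measured and 8 above the dim end. Their log2 values summed to 71.1, 70.6 and 70.6 on the ASYM arrays, 72.6, 72.6 and 74.4 on the SYM arrays, and 72.1 and 74.0 on the p53SYM arrays. These sums include the dim rows. SYM replicate 3 and p53SYM replicate 2 were highest here and also for the epithelial, skeletal muscle, leukocyte and Schwann cell markers. That did not hold for the fibroblast, osteoblast, endothelial and adipocyte markers. The chondrocyte marker with the highest mean over the 8 arrays was Sox9, the transcription factor that drives cartilage genes, which read 7.23, 6.62 and 6.55 on the ASYM arrays, 7.55, 7.09 and 6.76 on the SYM arrays and 6.55 and 6.34 on the p53SYM arrays. Its ASYM and SYM arrays overlapped, and its p53SYM arrays lay just under the lowest ASYM array, without a call in A, B or C (log2 fold change -0.69 ± 0.24 SE, limma adjusted p = 0.0586 in C). In C it was called lower in 5 of 18 alternatives, among them without ASYM replicate 1 (limma adjusted p = 0.03) and without SYM replicate 3 (0.0246), and with replicate number as a block it was called in A (0.0489), B (0.0124) and C (0.00143), with 0.0489 to 0.7, 0.0124 to 0.804 and 0.00143 to 0.532 over 18 alternatives. Acan, the large proteoglycan of cartilage, read 4.65, 4.65 and 4.44 on the ASYM arrays, 4.56, 5.04 and 4.84 on the SYM arrays and 4.94 and 5.21 on the p53SYM arrays, so its p53SYM arrays were not the low ones. Matn1 and Hapln1, structural proteins of cartilage, lay at the dim end on all arrays, between 3.18 and 3.90. Of the 16, limma called 1 higher (Prg4) and 1 lower (Epyc) in A (10.8% and 10.2% of all rows). It called 3 lower in B (Acan, Matn4 and Snorc, with 14.8% of all rows lower). The medians of the 16 were -0.18 in A, -0.16 in B and -0.00 in C. The 3 B calls were all lost with the hybridization-control level as a block (log2 fold change -0.45, -0.08 and -0.28, limma adjusted p = 0.389, 0.84 and 0.444) and without p53SYM replicate 2 (0.233, 0.159 and 0.0723). Acan was also lost with a second quantile normalization (log2 fold change -0.30, limma adjusted p = 0.16) and without ASYM replicate 1 (0.0527), 2 (0.0529) or 3 (0.0805), and Matn4 without ASYM replicate 1 (0.0605), ASYM replicate 3 (0.0635) or p53SYM replicate 1 (0.0658), with 0.0164 to 0.389, 0.0119 to 0.84 and 0.00603 to 0.444 over 18 alternatives. In A, 7 of 17 alternatives kept the Prg4 call, which was lost without any 1 array other than ASYM replicate 3 (limma adjusted p = 0.0673 to 0.16), with 0.012 to 0.16 over the 17. For Epyc 10 of 17 kept it, and it was lost without ASYM replicate 1, ASYM replicate 2 or any 1 SYM array (limma adjusted p = 0.0791 to 0.13), with 0.0235 to 0.13 over the 17. Leaving out ASYM replicate 3 gave 1 higher call in B (Prg4, limma adjusted p = 0.0262, with 0.0262 to 0.551 over 17 alternatives). Sox6 was called lower in B without SYM replicate 3 (limma adjusted p = 0.0479), with replicate number as a block (0.0302) and with centred arrays (0.0451, with 0.0302 to 0.976 over 17 alternatives). Without p53SYM replicate 1, the B log2 fold change of Sox5 was -0.54, against -0.32 with all arrays. In C, Matn4 was called higher without SYM replicate 3 (limma adjusted p = 0.0254) and Matn3 lower without ASYM replicate 3 (0.0471), with 0.0254 to 0.831 over 18 alternatives and 0.0322 to 0.23 over 17. The part of chondrocyte-like cells in the levels of Col2a1, Col10a1 and Col11a1 was not tested.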

How the data were processed

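Gene expression was measured on Affymetrix mouse genome arrays, 1 per RNA preparation. The authors made the deposited values with RMA (background correction, quantile normalization and summary per probe set) under a probe definition by RefSeq transcript, on the log2 scale, and nothing further was normalized here. Of 22587 rows, 64 Affymetrix controls were left out of the tests, and rows with identical values were counted once, which left 18172. Names came from a table of RefSeq genes and were matched to 18294 rows (81.2%) and 15653 genes.

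Line means were fitted with limma 3.58.1 in R 4.3.3 over all 8 arrays with the default prior, p-values were adjusted by the Benjamini-Hochberg method over all 18172 rows, and a row was called at an adjusted p under 0.05. The rank product test was re-implemented in Python 3.11.15 with numpy 2.4.6 and pandas 2.3.3, with 100 permutations, and figures were drawn with matplotlib 3.10.9. Both tests were run on simulated data with large changes placed in ASYM only and independent noise. Those runs do not show how the tests do with smaller changes or an array that stands apart. The fold of a difference is 2 raised to the absolute log2 fold change.

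Genes named with values were all measured hydroxylases, lysyl oxidases, Serpinh1 and Pcolce, the chains Col1a1, Col1a2, Col2a1, Col3a1, Col5a1 and Col5a2, and the 12 further collagens with the largest absolute log2 fold change among those called. A gene with several rows was represented by the brightest. The members and all gene lists were chosen with earlier results of these data known. The lists were maturation partners, collagen receptors, fibril-associated proteins and markers of fibroblasts, chondrocytes, osteoblasts, epithelium, endothelium, skeletal muscle, adipocytes, leukocytes and Schwann cells.

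The alternatives were the compared lines only, replicate number or hybridization-control level as a block, a second quantile normalization, centring each array on its median, rows above the 25th percentile, identical rows or control rows kept, 1 row per gene, a trend in the prior, a minimum log2 change of 1, the rank product test, and leaving out each array. The 18 alternatives counted for a gene (17 for a row that 1 of them leaves out) are limma fits, without the rank product test and the minimum change. In A, leaving out either p53SYM array is the same fit as the compared lines only, and the hybridization-control block the same as leaving out SYM replicate 3. Where 1 p53SYM array was left out, the remaining one was taken to vary like the arrays of the other lines.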

Additional observations from a re-analysis of the deposited data

How the results depend on the processing

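Of the 1674 log2 fold changes of the 31 named genes under alternatives, 1565 kept their direction and their side of the threshold, 53 kept the direction but lost the call, 17 gained one and 39 changed sign. None of the differences that changed sign was called in the fit reported above. Where a cause is not given by the construction of the alternative, the cause was not tested. The number of arrays and, for the 13 dim members, signal near the background limit what could be called.

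The shares of all rows called in the same fit are given in brackets, higher first. The rank product test gave 3 higher and 1 lower call in A (2.17% and 1.52%), 9 and 0 in B (1.66% and 0.451%), and 4 lower in C (1.62%). A minimum log2 change of 1, which can only remove calls, gave 3 and 1 in A (1.62% and 0.468%), 9 and 0 in B (2.38% and 0.589%), and 7 lower in C (2.07%). With the hybridization-control level as a block there was 1 lower call in A (7.39%), and in B there were 6 higher and 0 lower (2.29% and 0.919%). The lower calls in A numbered 4 with the arrays centred on their medians (13.4%) and 4 among rows above the 25th percentile (14%). A second quantile normalization gave 2 lower calls in B (12.6%) and 2 higher in C (11.5%). Leaving out single arrays gave 5 to 9 higher and 1 to 4 lower calls in A (7.74% to 10.3% and 6.99% to 9.54%), 17 to 21 and 1 to 6 in B (8.02% to 16.4% and 4.88% to 15.6%), and 1 to 3 and 15 to 18 in C (5.11% to 10% and 8.78% to 15.5%).

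With replicate number as a block there were 8 lower calls in B (18.6%) and 4 higher in C (12.2%), which as shares of the members are 15.7% and 7.84%, and the sign changed for Serpinh1 (-0.0016 in B, 0.044 in C) and Col1a2 (0.12 in C). This block also called Col1a1 higher in A, Lox lower in A and B and Col15a1 higher in C, which were not called without it, and ended the B call of Loxl1. The labels do not say that arrays of 1 number belong together. Across rows, deviations from the line means correlated between ASYM and SYM arrays of the same number at 0.26, 0.02 and 0.37, and 2 of the 3 ASYM arrays correlated best with the SYM array of their own number, so this pairing is uncertain.

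Signs changed with the hybridization-control level as a block for Col5a2 (0.028), Col16a1 (-0.019) and Col18a1 (0.0033) in A, P4ha2 (-0.038) and Loxl2 (0.35) in B, and Lox (-0.11) in C. With centred arrays they changed for Col16a1 (-0.015) and Serpinh1 (-0.0025) in A. A second quantile normalization turned Plod3 (-0.077), Serpinh1 (-0.057) and Loxl2 (0.12) in B, and Col1a2 (0.085), Plod3 (0.019) and Serpinh1 (0.097) in C.

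Leaving out single arrays moved the log2 fold change in A from -0.52 to 0.18 for Col3a1, -0.17 to 0.088 for Col5a2, -0.14 to 0.074 for Col4a2, -0.022 to 0.13 for Col16a1, -0.23 to 0.12 for Col18a1, -0.11 to 0.094 for Plod3, -0.021 to 0.19 for Pcolce and -0.029 to 0.11 for Serpinh1. In B it ran from -0.017 to 0.19 for Plod3, -0.0014 to 0.12 for Serpinh1, -0.20 to 0.025 for Loxl2 and -0.27 to 0.014 for Loxl4. In C it ran from -0.25 to 0.14 for Col1a2, -0.064 to 0.044 for Serpinh1 and -0.024 to 0.15 for Lox.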

Other observations

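Markers of the labelled cell type did not all keep their level. Of the 9 fibroblast markers, limma called 2 higher (Pdgfrb and Twist1) and 2 lower (Twist2 and Thy1) in A, 2 higher (Vim and Pdgfra) and 1 lower (Thy1) in B, and 3 higher (Pdgfrb, Thy1 and Twist1) and 2 lower (Pdgfra and Twist2) in C. Of all rows, 10.8% were called higher and 10.2% lower in A, 15.9% and 14.8% in B, and 10.3% and 15.6% in C. Twist2, a mesenchymal transcription factor, read 8.19, 8.40 and 8.20 on the ASYM arrays, 9.54, 9.46 and 9.18 on the SYM arrays and 8.02 and 7.88 on the p53SYM arrays. Its SYM arrays lay above all others (log2 fold change -1.13 in A and -1.45 in C, limma adjusted p = 1.17e-04 and 4.96e-05). Pdgfra, a growth factor receptor of fibroblasts, read 7.30, 7.81 and 7.50 on the ASYM arrays, 7.09, 7.04 and 7.06 on the SYM arrays and 6.36 and 5.69 on the p53SYM arrays, with the p53SYM arrays lowest (log2 fold change 1.51 in B and -1.04 in C, limma adjusted p = 4.32e-04 and 0.00284). Pdgfra was not called in A (limma adjusted p = 0.0747) but was called higher without p53SYM replicate 1 (0.0294) or 2 (0.0294), with 0.0294 to 0.25 over 18 alternatives.

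Several of the other fibroblast marker calls depended on single arrays or on the hybridization-control level as a block. In A, 6 of 17 alternatives kept the Thy1 call, which was lost without any 1 of the 8 arrays (limma adjusted p = 0.0524 to 0.153), with 0.0202 to 0.153 over the 17. The A call of Twist1 was lost without ASYM replicate 2 (limma adjusted p = 0.0725), SYM replicate 1 (0.066) or SYM replicate 3 (0.0697) and with the block (0.0697), with 0.016 to 0.0725 over 18 alternatives. In B, the Vim call was lost without p53SYM replicate 2 (limma adjusted p = 0.116), with the block (0.191) and with a second quantile normalization (log2 fold change 0.11 against 0.39, limma adjusted p = 0.365), with 0.0028 to 0.365 over 18 alternatives, and the Thy1 call with the block (0.153, with 9.73e-04 to 0.153 over 17). In C, the 3 higher calls, of Pdgfrb, Thy1 and Twist1, were lost with the block (log2 fold change 0.43, 0.24 and 0.55 against 0.33, 0.37 and 0.50, limma adjusted p = 0.0516, 0.278 and 0.0567) and without p53SYM replicate 1 (0.117, 0.16 and 0.103). Those of Pdgfrb and Thy1 were also lost without p53SYM replicate 2 (0.105 and 0.0559) or SYM replicate 1 (0.0566 and 0.0677), that of Pdgfrb without SYM replicate 3 (0.0735) and that of Thy1 without SYM replicate 2 (0.0873). These 3 calls were kept in 11 of 18, 11 of 17 and 16 of 18 alternatives, over which the adjusted p ran from 0.00492 to 0.117, 0.0201 to 0.278 and 0.00248 to 0.103.

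Of 4 adipocyte markers, 3 were measured, and 2 of these were called higher in A (10.8% of all rows), 1 lower in B (14.8%) and 2 higher in C (10.3%). Fabp4, a fatty acid carrier of fat cells, read 8.22, 8.07 and 7.31 on the ASYM arrays, 5.92, 5.56 and 5.15 on the SYM arrays and 9.55 and 8.94 on the p53SYM arrays. The 3 states did not overlap, with SYM lowest and p53SYM highest (13-fold, log2 fold change 3.70 ± 0.29 SE, limma adjusted p = 2.40e-05 in C, and log2 fold change 2.32 ± 0.26 SE, limma adjusted p = 2.13e-04 in A). In B it was called lower (log2 fold change -1.38 ± 0.29 SE, limma adjusted p = 0.00624), but not without p53SYM replicate 1 (limma adjusted p = 0.0595) or with the block (log2 fold change -1.97, limma adjusted p = 0.0504), with 4.69e-04 to 0.0595 over 18 alternatives. The other call in C, of Pparg, was lost without ASYM replicate 2 (limma adjusted p = 0.0645), SYM replicate 1 (0.0895), 2 (0.0932) or 3 (0.0899) or p53SYM replicate 1 (log2 fold change 0.41 against 0.68, limma adjusted p = 0.316) and with the block (0.181), with 11 of 18 alternatives keeping it and 0.0138 to 0.316 over the 18. Adipoq, the hormone that defines fat cells, lay at the dim end, between 3.18 and 3.67. Of 9 osteoblast markers, 6 were measured, and 1 was called higher in A (10.8% of all rows) and 1 higher and 2 lower in C (10.3% and 15.6%). The higher one was Spp1, a secreted matrix phosphoprotein, in both cases (log2 fold change 1.04 ± 0.22 SE, limma adjusted p = 0.00727 in A, and log2 fold change 1.39 ± 0.25 SE, limma adjusted p = 0.00245 in C). The 2 lower were Runx2 and Phex, and both calls were lost without p53SYM replicate 1 (limma adjusted p = 0.145 and 0.0679) and with the block (0.0738 and 0.243), that of Runx2 without SYM replicate 3 (0.0523) and that of Phex without p53SYM replicate 2 (0.144), with 0.015 to 0.145 over 18 alternatives and 0.00567 to 0.243 over 17.

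The 6 epithelial and the 4 skeletal muscle markers were not called in A, B or C, with log2 fold changes from -0.32 to 0.49 and from -0.29 to 0.26. Leaving out single arrays made calls among the epithelial ones: Krt14 was called in B (limma adjusted p = 0.035) and C (0.0496) and Krt5 in C (0.0422) without SYM replicate 3, Krt8 in C without SYM replicate 2 (0.0182) and Epcam in C without p53SYM replicate 1 (0.0436), with 0.0297 to 0.965, 0.0496 to 0.902, 0.0422 to 0.778, 0.0182 to 0.524 and 0.0436 to 0.348 over the alternatives. Des, a muscle marker, was called in B with replicate number as a block (0.0423, with 0.0423 to 0.837 over 18). Of the 4 endothelial markers, Kdr was called lower in A (10.2% of all rows) and B (14.8%) and higher in C (10.3%), of the 3 leukocyte markers measured, Cd3e was called lower in B and higher in C, and of the 3 Schwann cell markers, Sox10 was called lower in B. Each of these 6 calls was lost with the hybridization-control level as a block (limma adjusted p = 0.123, 0.0944 and 0.143 for Kdr, 0.328 and 0.132 for Cd3e and 0.642 for Sox10, whose log2 fold change went from -0.48 to -0.18). For Kdr it went from -0.32 to -0.28 in A, -0.76 to -0.63 in B and 0.44 to 0.36 in C. For Cd3e it went from -0.43 to -0.33 in B and 0.42 to 0.35 in C. The A call of Kdr was also lost without ASYM replicate 1 (0.0518), 2 (0.126) or 3 (0.0873), SYM replicate 1 (0.0881) or SYM replicate 3 (0.123) and with a trend in the prior (0.0636), and its C call without SYM replicate 2 (0.0507) or p53SYM replicate 2 (0.121). Without p53SYM replicate 2 the calls of Cd3e (0.109 in B and 0.13 in C) and Sox10 (0.136) were lost too, and that of Sox10 also without ASYM replicate 2 (0.0522). Over 18 alternatives the adjusted p-values of Kdr ran from 0.0227 to 0.126 in A, 6.87e-04 to 0.0944 in B and 0.00768 to 0.143 in C, those of Cd3e from 0.00778 to 0.328 in B and 0.0112 to 0.132 in C, and those of Sox10 from 0.00493 to 0.642. By mean over the 8 arrays, the brightest genes of these lists were Krt5, Des, Kdr, Cd3e and Sox10.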
